A study of Mus musculus with 17 samples.

Results

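The 42 genes described here encode the ligands, receptors, Smad proteins, extracellular regulators, and *Id* target genes of bone morphogenetic protein (BMP) and transforming growth factor-β (TGF-β) signaling. They were selected by symbol from a list of the pathway, and all 42 were found among the 26556 genes of the count tables. They were measured by bulk RNA-seq in 17 astrocyte libraries of mice at postnatal day 7 (P7), in which green fluorescent protein is driven by the *Gfap* promoter (*Gfap::GFP*, strain FVB) and fluorescent cells were purified by fluorescence-activated cell sorting. Tissue of 4 brains was pooled for each library, and no group received a treatment. The cortex, dissected from the primary somatosensory area, gave 4 libraries (a to d). The thalamus gave 13, namely, 5 of the dorsolateral geniculate nucleus (dLG, a to e), 4 of the ventral posteromedial nucleus (VPM, a to d), and 4 of the ventral medial geniculate nucleus (MGv, a to d). These are the relay nuclei of vision, touch, and hearing. Whether libraries of different nuclei came from the same brains is not stated, and p-values measure the spread between these pools.

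Totals ranged from 18213687 to 50366363 counts, with all libraries other than cortex a at or below 21519981, so that 3 counts, the level treated as the limit of detection, correspond to 0.0648 to 0.167 CPM (counts scaled to a common library size). Levels are given as CPM scaled by the TMM method, in the order of the library letters, and such limits cover counting error only. Log2 fold changes (log2FC), their standard errors (SE), and p-values adjusted over all genes tested come from edgeR's quasi-likelihood test, and a gene is called where the adjusted p is under 0.1. The leading digits of the library numbers divide the libraries into 3 series. The largest (10 libraries) holds all 4 MGv libraries and 2 each of the other groups, the second (6 libraries) holds 2 each of cortex, dLG, and VPM, and dLG c stands alone. All 10 astrocyte marker genes were detected in every group. However, *Gfap*, whose promoter drives the reporter, was at only 8.98 to 19.3 CPM in the VPM, against 450.4 to 538 in the cortex, 78.3 to 1310.0 in the dLG, and 36.1 to 5525 in the MGv. Genes of the oligodendrocyte lineage were abundant in every library, with 8 markers summing to 6127 to 7986 CPM in the MGv and 6929 to 11139.8 CPM in the VPM. In the VPM, this was close to the 10 astrocyte markers (6759 to 9279.9 CPM) and above them in VPM a, VPM c, and VPM d. The dLG sums were also close, at 7247 to 8913 CPM for the oligodendrocyte lineage and 7922 to 9460 CPM for the astrocyte markers. In the MGv, where the astrocyte markers summed to 6391 to 15700 CPM, the sums were far apart only in MGv c (6127 and 15700 CPM). In the cortex, the sums were 6636 to 8027 CPM for the oligodendrocyte lineage and 12983 to 13975 CPM for the astrocyte markers.

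BMPs, growth and differentiation factors, activins, and TGF-βs are secreted dimers that bring together type I and type II receptor kinases. BMP receptors act mainly on Smad1, Smad5, and Smad9, TGF-β and activin receptors on Smad2 and Smad3, and both branches share Smad4. Smad6 and Smad7 inhibit the receptors, secreted antagonists such as Noggin and Follistatin trap the ligands, and latent TGF-β binding proteins hold TGF-β in the matrix until it is released. The *Id* genes, which encode inhibitors of basic helix-loop-helix transcription factors, are classic targets of BMP signaling. In the developing brain, BMP signaling is known to favor the formation of astrocytes from progenitors.

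Most of the pathway was expressed in every group. Of the 42 members, 34 were above 1 CPM in each of the 17 libraries. Per kilobase of exon, which allows genes to be compared, the targets *Id2* and *Id3* stood highest in every group. *Id1* and *Id4* followed in the cortex, dLG, and MGv, whereas in the VPM *Id1* (45.8 CPM per kilobase) was below *Smad4* (52.2), and *Id4* (21.9) ranked 9 of 42. *Id3* had a mean level of 609 CPM per kilobase in the cortex, 983 for the dLG, 524 for the VPM, and 667 for the MGv. The corresponding levels of *Id2* were 469, 473, 593, and 479, so that only in the VPM was its mean above that of *Id3*. Among the transducers, the shared *Smad4* was the most abundant in every group (47.6 to 61.5 CPM per kilobase), followed by *Smad1* (22.3 to 25.2). *Bmp7* (21.8 to 35.4 CPM per kilobase) and *Bmp4* (9.48 to 40.0) were the ligands with the highest levels in every group but the MGv, where *Tgfb2* (13.8) was above *Bmp4*, and *Nog*, the antagonist of both, reached 27.9 to 44.5 CPM per kilobase. Among the receptors, *Bmpr1a* stood highest (13.8 to 26.7). *Tgfb1* (0.169 to 0.479), the co-receptor *Tgfbr3* (0.0878 to 0.190), and *Grem1* (0.0648 to 0.224) were near the bottom. *Bmp5* had no more than 3 counts in 11 of the 17 libraries, while 46.7% of its exon bases overlap *Gm26903* on the opposite strand.

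**Figure D1:**
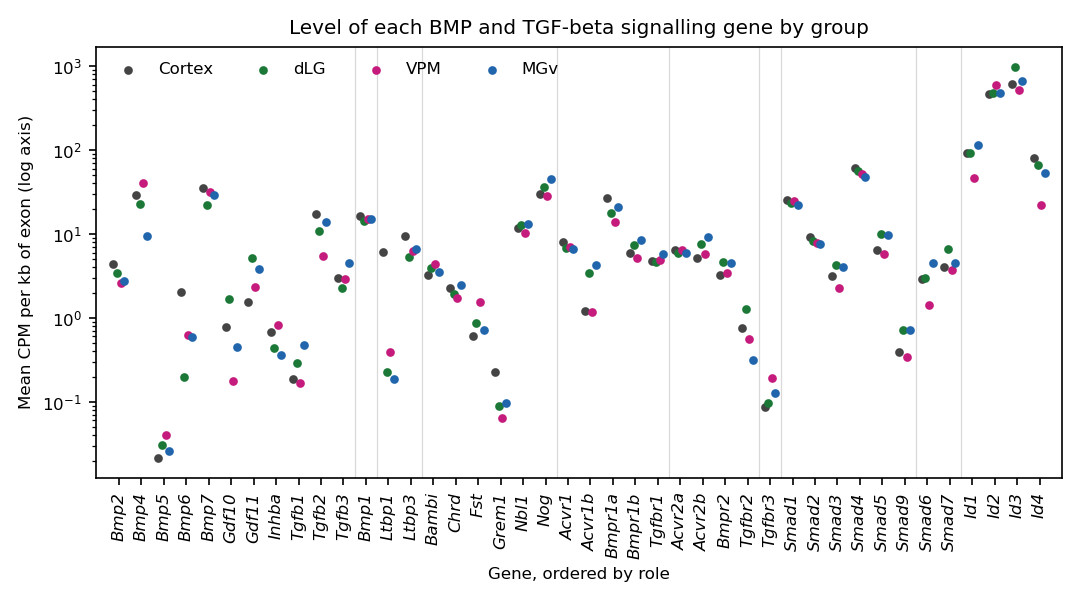
Mean level of each of the 42 genes in the cortex, dLG, VPM, and MGv, in CPM per kilobase of exon on a log axis, with genes ordered by role and one point per group. *Id2* and *Id3* lie at the top in every group, *Bmp5* lies at the bottom, and *Ltbp1* shows the widest gap between the cortex (6.11) and the nuclei (0.185 to 0.395).

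To determine whether the pathway differs between thalamic and cortical astrocytes, the 13 thalamic libraries were compared with the 4 cortical libraries. Both latent TGF-β binding proteins of the list, *Ltbp1* and *Ltbp3*, were lower in the thalamus, as were the ligand *Tgfb2* and the BMP receptor *Bmpr1a*, whereas the ligand *Gdf11* was higher. None of the 6 transducing Smads, 6 extracellular antagonists, or 4 *Id* genes was called in this comparison of 2 groups by edgeR or DESeq2. Of these 16 genes, *Id4* had an unadjusted p under 0.05 by edgeR and was called lower in the thalamus in the fit of 4 groups. Of the 41 members tested, 1 was called higher and 4 lower, beside 5.45% higher and 5.93% lower among all 17856 genes tested. Calls among the members were 2.44% higher and 9.76% lower, and the median log2FC was 0.02 both for the members and for all genes. In 2 members, *Ltbp1* and *Ltbp3*, every thalamic library lay below every cortical one, which was the case for 3.1% of all genes (1.67% in the opposite direction). As the libraries are bulk samples, fewer cells with a transcript and less transcript per cell cannot be told apart.

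*Ltbp1* showed the largest difference of any member. It encodes a matrix protein that binds latent TGF-β and keeps it in store, and it lies on chromosome 17 from 75005568 to 75392512. It was at 60.9, 57.7, 61.6, and 81.3 CPM in the 4 cortical libraries. The dLG libraries held 3.42, 1.91, 0.851, 2.14, and 3.89 CPM, those of the VPM 2.58, 2.96, 5.11, and 6.26 CPM, and those of the MGv 0.818, 1.61, 2.33, and 3.17 CPM. The 2 sets of libraries were thus far apart, with the lowest cortical library above the highest thalamic library by several-fold. The level in the thalamus was 22.9-fold lower, a log2FC of -4.52 (SE 0.33, adjusted p = 1.38e-08). Within the largest library series, the log2FC was -4.53 (adjusted p = 8.23e-05), and within the second it was -4.34 (adjusted p = 6.16e-04).

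*Ltbp3*, the other latent TGF-β binding protein, is encoded on chromosome 19 from 5740904 to 5758532. Its cortical libraries held 74.1, 77.2, 91.9, and 99.1 CPM. In the nuclei, it was at 46.5, 56.2, 38.2, 50.0, and 53.1 CPM in the dLG, 51.3, 52.7, 64.1, and 57.6 CPM in the VPM, and 50.1, 62.0, 70.4, and 57.8 CPM in the MGv. Again, no thalamic library reached the lowest cortical one, although the difference was much smaller, with a log2FC of -0.65 (SE 0.13, adjusted p = 0.00200). The call held within the largest library series (log2FC of -0.71, adjusted p = 0.0226) but not within the second (log2FC of -0.53, adjusted p = 0.227).

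The sequences before the 2 RefSeq start sites of *Ltbp1* are shown because this gene marks the difference between the regions. They cover 250 bases each on the + strand of GRCm38 (chr17:75005279-75005528 and chr17:75178531-75178780), outside annotated exons. Capitals mark GTCT, the short core bound by Smad3 and Smad4, read on both strands (on the other one it is written as AGAC). Each of the windows holds 2 such matches, but so common a motif is found in 82.9% of the 32851 mouse promoter windows and in 83.3% of the 36 windows of members. The GC-rich element of BMP Smads, GGCGCC, does not occur in them. The counts of *Ltbp1* do not tell which start site was used.
Ltbp1 start 1: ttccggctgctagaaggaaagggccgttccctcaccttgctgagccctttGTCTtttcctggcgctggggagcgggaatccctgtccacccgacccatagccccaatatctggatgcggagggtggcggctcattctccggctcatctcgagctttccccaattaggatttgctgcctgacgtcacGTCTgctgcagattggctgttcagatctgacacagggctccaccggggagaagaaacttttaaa
Ltbp1 start 2: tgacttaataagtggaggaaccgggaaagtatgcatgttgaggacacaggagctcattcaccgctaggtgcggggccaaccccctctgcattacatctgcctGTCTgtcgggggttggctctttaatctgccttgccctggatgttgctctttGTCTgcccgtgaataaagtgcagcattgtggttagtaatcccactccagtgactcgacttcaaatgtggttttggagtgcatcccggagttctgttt

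Among the ligands, *Gdf11* and *Tgfb2* differed in opposite directions. GDF11 is related to myostatin and signals through activin receptors. *Gdf11*, on chromosome 10 from 128882295 to 128891718, was at 6.01, 5.07, 8.12, and 5.84 CPM in the cortex. It was at 15.5, 20.0, 32.2, 10.3, and 26.1 CPM in the dLG and at 14.2, 19.1, 13.1, and 15.1 CPM in the MGv, all above the cortex, while the VPM libraries (8.12, 12.4, 7.41, and 9.81 CPM) overlapped with the cortex. For all thalamic libraries, the lowest, median, and highest levels were 7.41, 14.2, and 32.2 CPM, and the log2FC was 1.32 (SE 0.34, adjusted p = 0.0180). Within the second series, which holds only 2 libraries each of the cortex, dLG, and VPM, the log2FC was 1.39 (adjusted p = 0.401). Within the largest series it was 1.04 (adjusted p = 0.166).

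*Tgfb2*, on chromosome 1 from 186622792 to 186705989, encodes the most abundant TGF-β ligand of these libraries. The cortex held 103, 110.0, 115, and 71.6 CPM. Levels were 52.9, 60.9, 59.6, 60.6, and 83.6 CPM in the dLG, 29.9, 30.6, 33.9, and 30.8 CPM in the VPM, and 67.4, 83.6, 92.9, and 75.1 CPM in the MGv. The VPM thus stood apart below all other libraries, whereas the MGv overlapped with the cortex. Over all nuclei, the log2FC against the cortex was -0.77 (SE 0.26, adjusted p = 0.0813).

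*Bmpr1a*, the type I receptor most abundant in these libraries, lies on chromosome 14 from 34410734 to 34503341 and binds BMP2 and BMP4. It was at 177, 188, 152, and 160.0 CPM in the cortex. In the thalamus, it was at 104, 113, 115, 121, and 105 CPM in the dLG, 82.2, 101, 95.1, and 72.8 CPM in the VPM, and 91.4, 118, 191, and 137 CPM in the MGv. Apart from MGv c, every thalamic library was below the cortical ones. The log2FC was -0.60 (SE 0.17, adjusted p = 0.0313), and it was -0.43 (adjusted p = 0.521) within the largest series.

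The smaller differences depended on single libraries. The call of *Bmpr1a* was lost without cortex b (adjusted p = 0.126) or without cortex d (adjusted p = 0.116). That of *Tgfb2* was lost when any single cortical library, dLG a, dLG b, MGv a, or VPM d was left out (adjusted p between 0.104 and 0.241). *Ltbp1*, *Ltbp3*, and *Gdf11* were called in all 17 such fits.

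Some members missed the threshold narrowly. *Bmp6* was at 0.584, 3.98, 5.00, and 21.8 CPM in the cortex, an uneven set in which the summed level of 4 ependymal markers had the same order (3.48, 23.0, 33.7, and 94.1 CPM). Its log2FC was -2.16 (SE 0.78, adjusted p = 0.104), and the part of ependymal cells in it was not tested. The ligand *Bmp7* averaged 142 ± 3.54 CPM over the cortical and 108 ± 21.6 CPM over the thalamic libraries (SD, n = 4 and 13), with a log2FC of -0.39 (SE 0.15, adjusted p = 0.110). *Acvr2b*, a type II receptor for activins and GDF11, had a log2FC of 0.54 (SE 0.20, adjusted p = 0.117). DESeq2 called each of these 3 genes as well as the activin receptor *Acvr1b* (log2FC of 1.32, SE 0.55, adjusted p = 0.167 in edgeR).

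Markers of other cells also differed between the regions. Both ependymal markers tested were called lower in the thalamus, and the 4 markers summed to 3.48 to 94.1 CPM in the cortex, 0.284 to 5.83 CPM in the dLG, 2.2 to 4.81 CPM in the VPM, and 3.32 to 8.50 CPM in the MGv. *Ltbp1* was at 60.9 CPM in cortex a, with the lowest cortical ependymal sum, and at 81.3 CPM in cortex d, with the highest. Of the 10 neuronal markers, 2 were called higher and 1 lower. Of the 5 mural markers tested, 1 was lower, and of the 5 fibroblast markers tested, 1 was higher and 1 lower. The median log2FC was 1.35 for the 6 microglial and 1.94 for the 5 endothelial markers tested, of which 1 (*Csf1r*) had an unadjusted p under 0.05 by edgeR and was not called. Of the 10 astrocyte markers, 1 was called higher and 3 lower. They summed to 12983 to 13975 CPM in the cortex, 7922 to 9460 CPM in the dLG, 6759 to 9280 CPM in the VPM, and 6391 to 15700 CPM in the MGv. The highest MGv sum was that of MGv c, where *Bmpr1a* was also highest in the thalamus (191 CPM), while *Ltbp1* was at 2.33 CPM. The part of any of these cell types in the calls of the pathway genes was not tested.

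**Figure D2:**
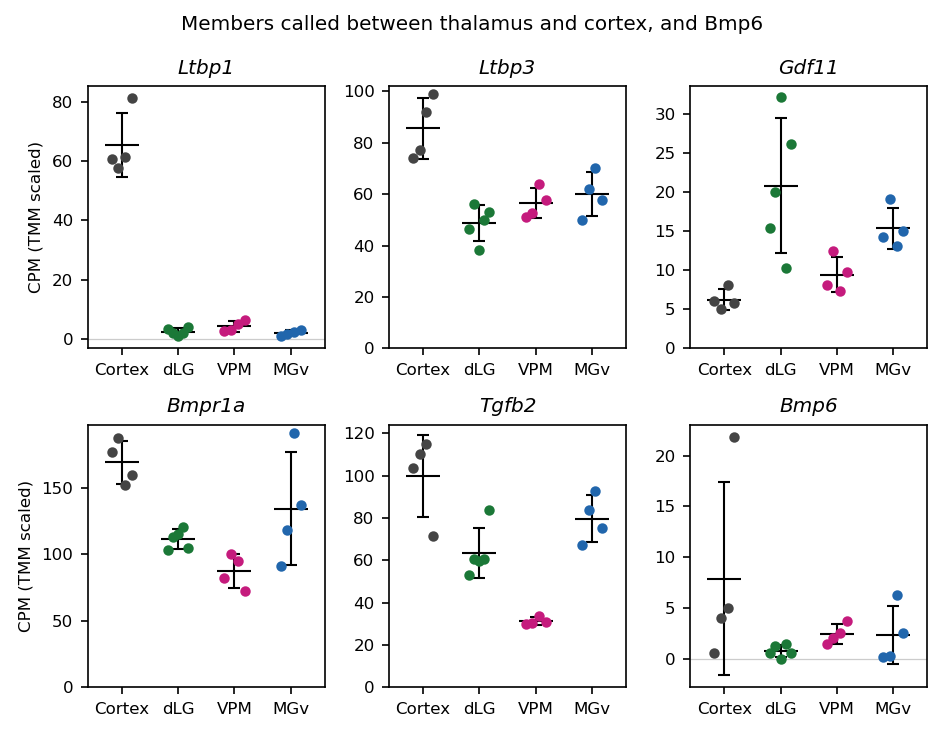
Levels in CPM (TMM scaled, linear axes from 0) of the 5 members called between thalamus and cortex and of *Bmp6*, one point per library, with bars for the group mean and SD. Cortical libraries of *Ltbp1* lie between 57.7 and 81.3 CPM and all thalamic libraries at or below 6.26 CPM, whereas *Bmp6* varies widely within the cortex.

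Other genes of the pathway, taken from a wider list of 75 genes of which 73 are in the tables, also differed between the regions. Of 63 tested, 3 were called higher and 11 lower in the thalamus, beside 5.45% higher and 5.93% lower among all genes, and their median log2FC was -0.03. The 5 called genes with the lowest p were all lower in the thalamus. *Chrdl1*, which encodes a secreted BMP antagonist related to Chordin, averaged 220.5 ± 21.1 CPM over the cortical and 23.9 ± 9.10 CPM over the thalamic libraries (SD, n = 4 and 13), and its log2FC was -3.21 (SE 0.21, adjusted p = 3.56e-09). The follistatin-like genes *Fstl5* and *Fstl1* had log2FCs of -1.76 (SE 0.19, adjusted p = 2.74e-06) and -1.09 (SE 0.15, adjusted p = 6.97e-05), respectively. *Htra1*, a secreted protease that acts on TGF-β family signaling, fell by 1.67 on the log2 scale (adjusted p = 0.00291). *Hey1*, a transcriptional repressor downstream of Notch and BMP, had a log2FC of -0.69 (SE 0.14, adjusted p = 0.00387).

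**Figure D3:**
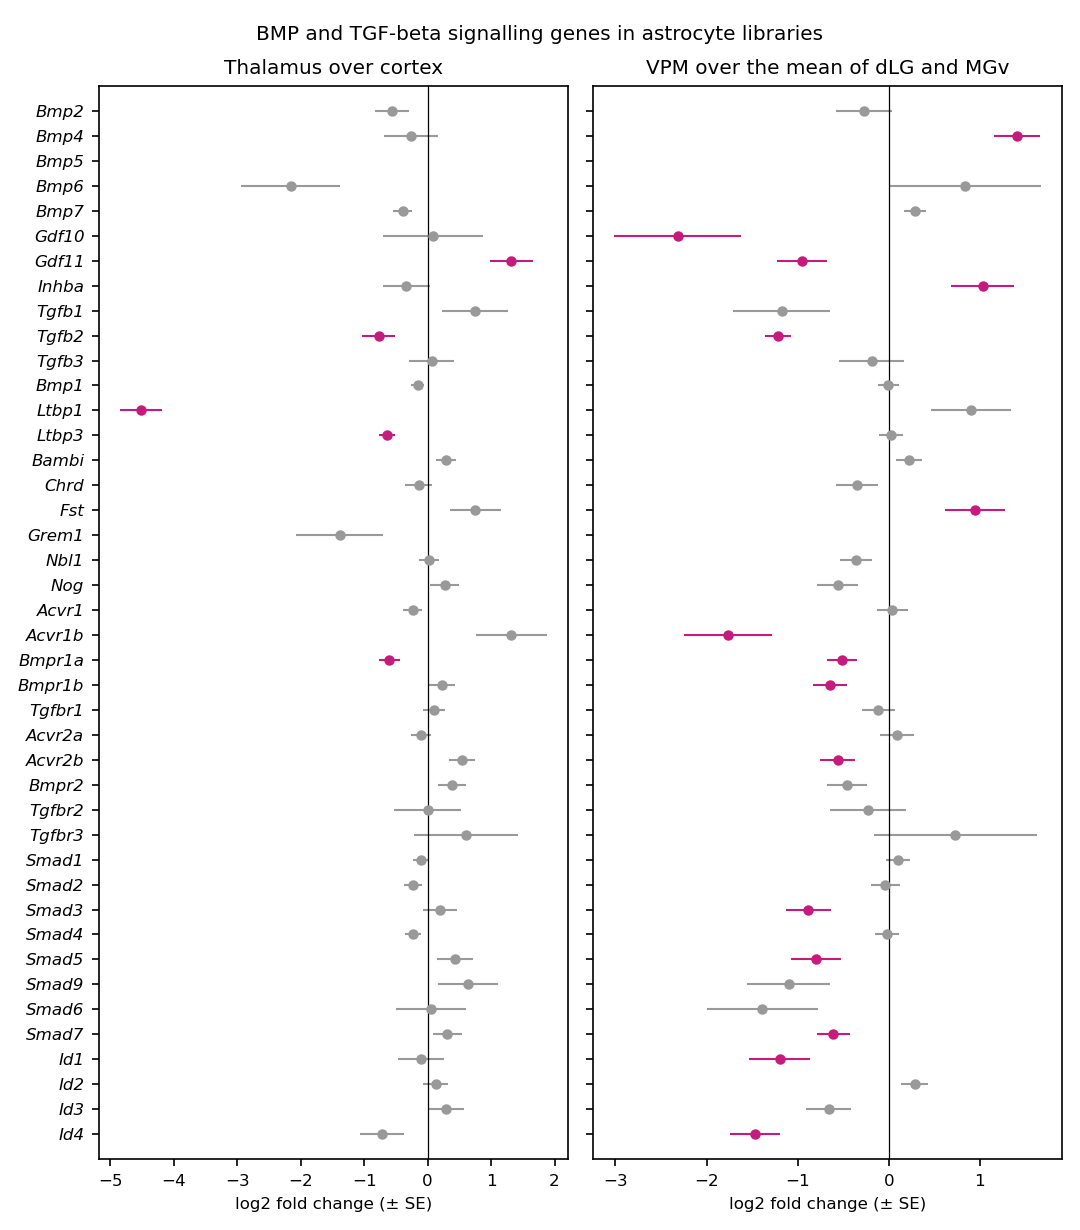
Log2 fold change ± SE of each member tested, for the thalamus over the cortex (left) and for the VPM over the mean of the dLG and MGv (right), with called members in magenta and the others in gray. *Ltbp1* (-4.52) stands out on the left, whereas 12 members lie below 0 and 3 above 0 among those called on the right.

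Next, the nuclei were compared with each other, each with the mean of the other 2, in a fit of the 13 thalamic libraries. The VPM differed most. Its astrocyte libraries had lower levels of the ligands *Tgfb2*, *Gdf10*, and *Gdf11*, the receptors *Bmpr1a*, *Bmpr1b*, *Acvr1b*, and *Acvr2b*, the Smads *Smad3*, *Smad5*, and *Smad7*, and the targets *Id1* and *Id4*, but higher levels of the ligands *Bmp4* and *Inhba* and of the antagonist *Fst*. Of the 40 members tested, 3 were thus called higher and 12 lower in the VPM, beside 7.07% higher and 9.78% lower among all 17319 genes tested. The median log2FC was -0.31 for the members and -0.02 for all genes. In 2 members, *Tgfb2* and *Bmpr1b*, all VPM libraries lay below all other thalamic libraries, which held for 2.62% of all genes, and no member had all VPM libraries above the others (4.04% of all genes). When pairs of nuclei were tested, *Tgfb2*, *Id4*, *Acvr1b*, *Id1*, and *Smad3* were lower in the VPM than in each of the other nuclei, 5 of 40 members beside 3.92% of all genes.

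Among the ligands, *Tgfb2* gave the clearest difference. The 4 VPM libraries agreed closely (29.9, 30.6, 33.9, and 30.8 CPM), below the lowest dLG library (52.9 CPM). The VPM had a 2.33-fold lower level, a log2FC of -1.22 (SE 0.14, adjusted p = 3.40e-04). Within the largest library series, the log2FC was -1.09 (adjusted p = 0.0207).

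*Bmp4*, on chromosome 14 from 46383520 to 46390669, encodes a BMP that patterns the early neural tube and acts on glial progenitors. It was at 128, 46.1, 96.5, and 89.4 CPM in the VPM. The dLG held 69.7, 32.2, 37.6, 56.2, and 59.5 CPM and the MGv 22.8, 14.6, 16.8, and 31.1 CPM, and the cortex was at 62.6, 59.3, 57.3, and 79.3 CPM. The MGv stood below every other library, whereas the VPM overlapped with the dLG through VPM b. The VPM was 2.66-fold higher than the mean of the other nuclei, with a log2FC of 1.41 (SE 0.25, adjusted p = 0.00576). Against the MGv alone the log2FC was 2.04 (SE 0.32, adjusted p = 0.00298), while the dLG differed from the VPM by -0.78 (SE 0.29, adjusted p = 0.131). The oligodendrocyte lineage, in which *Bmp4* is also known to be expressed, moved with it in part. The summed level of its 8 markers was highest in VPM a (11140 CPM) and lowest of the VPM in VPM b (6929 CPM), the libraries with the highest and lowest *Bmp4*. The dLG did not share this order. There, the sum was lowest in dLG a (7247 CPM), with the highest *Bmp4*, and was 8451 CPM in dLG b, with the lowest. In the MGv this sum (6127 to 7986 CPM) overlapped with that of the cortex (6636 to 8027 CPM), although *Bmp4* did not. The part of these cells in the level of *Bmp4* was not tested.

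*Gdf10*, on chromosome 14 from 33923587 to 33937983, encodes a BMP-related ligand of low abundance. It was at 0.717, 0, 1.95, and 0.986 CPM in the VPM, with no count in VPM b. The MGv held 2.02, 0.674, 4.70, and 1.86 CPM and the cortex 2.38, 5.12, 3.57, and 5.31 CPM. In the dLG, all libraries were higher, at 11.5, 6.64, 7.42, 12.2, and 5.40 CPM. The log2FC of the VPM was -2.32 (SE 0.70, adjusted p = 0.0491). *Gdf11*, whose levels are given above, was also lower in the VPM than in the other nuclei, with a log2FC of -0.95 (SE 0.27, adjusted p = 0.0417), so that the VPM was the nucleus closest to the cortex for this ligand.

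*Inhba*, on chromosome 13 from 16011851 to 16031621, encodes the subunit of activin A. It was at 3.68, 5.41, 6.46, and 5.57 CPM in the VPM, at 1.55, 2.87, 4.40, 2.09, and 2.93 CPM in the dLG, at 1.06, 2.38, 3.33, and 2.45 CPM in the MGv, and at 4.95, 5.02, 3.12, and 4.06 CPM in the cortex. Its log2FC was 1.03 (SE 0.35, adjusted p = 0.0716). *Fst*, on chromosome 13 from 114452290 to 114458951, encodes Follistatin, which binds and neutralizes activins. Its levels were 5.26, 12.1, 5.86, and 5.47 CPM in the VPM, 6.28, 3.59, 2.36, 3.68, and 3.99 CPM in the dLG, 4.09, 2.49, 4.51, and 2.18 CPM in the MGv, and 4.69, 2.75, 2.28, and 1.5 CPM in the cortex. The ligand and its antagonist were thus both called higher in the VPM, *Fst* with a log2FC of 0.95 (SE 0.33, adjusted p = 0.0789). However, *Fst* was much higher in VPM b than in the other 3 VPM libraries, and without VPM b its log2FC was 0.58 (adjusted p = 0.320).

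Of the 9 type I and type II receptors, 4 were called in the VPM, all lower, beside 9.78% of all genes lower and 7.07% higher. *Acvr1b*, on chromosome 15 from 101174067 to 101213684, encodes the type I receptor of activins. It was at 5.78, 5.30, 5.91, and 3.55 CPM in the VPM, close to the cortex (3.89, 3.54, 6.78, and 7.10 CPM). Both the dLG (6.84, 13.9, 16.7, 4.73, and 33.7 CPM) and the MGv (13.5, 35.3, 10.4, and 17 CPM) varied widely between libraries, with dLG e and MGv b at the top. The log2FC was -1.76 (SE 0.48, adjusted p = 0.0353).

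The BMP receptors differed less but with smaller spread. *Bmpr1b*, on chromosome 3 from 141837136 to 142169425, is a type I receptor like *Bmpr1a*. It was at 24.1, 36.9, 34.3, and 26.6 CPM in the VPM, 42.3, 45.1, 47.1, 44.5, and 38.2 CPM in the dLG, 38.1, 41.0, 76.4, and 45.1 CPM in the MGv, and 34.3, 31.9, 41.5, and 34.9 CPM in the cortex. Its log2FC was -0.65 (SE 0.19, adjusted p = 0.0432), and that of *Bmpr1a* was -0.52 (SE 0.16, adjusted p = 0.0579). *Acvr2b*, on chromosome 9 from 119402118 to 119434995, was at 23.9, 22.2, 26.4, and 19.2 CPM in the VPM. The dLG held 29.3, 33.5, 20.7, 29.9, and 36.8 CPM, the MGv 32.9, 50.4, 25.9, and 35.6 CPM, and the cortex 20.6, 19.8, 22.2, and 19.0 CPM. Its log2FC was -0.56 (SE 0.19, adjusted p = 0.0771). *Bmpr2*, the type II receptor of BMPs, was not called (log2FC of -0.46, SE 0.22, adjusted p = 0.202), nor was *Tgfbr1*, the type I receptor of TGF-β (log2FC of -0.11, SE 0.18, adjusted p = 0.733).

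Within the cell, one Smad of each branch was lower in the VPM. *Smad3*, on chromosome 9 from 63646767 to 63757994, transduces TGF-β and activin signals. It was at 11.2, 13.2, 12.9, and 13.6 CPM in the VPM and 13.1, 26.0, 21.5, 16.8, and 39.3 CPM in the dLG. The MGv was at 17.6, 22.3, 25.0, and 24.7 CPM and the cortex at 18.7, 15.3, 15.9, and 19.4 CPM, so that only dLG a fell within the range of the VPM. The log2FC was -0.88 (SE 0.25, adjusted p = 0.0392). *Smad5*, on chromosome 13 from 56703010 to 56742377, transduces BMP signals. It was at 45.3, 60.6, 39.6, and 26.7 CPM in the VPM, 49.6, 68.5, 90.5, 50.0, and 116 CPM in the dLG, 68.6, 106, 52.2, and 58.7 CPM in the MGv, and 53.1, 42.1, 55.7, and 39.3 CPM in the cortex. Its log2FC in the VPM was -0.80 (SE 0.27, adjusted p = 0.0760). The other transducers were not called by edgeR, with log2FCs of 0.10 for *Smad1*, -0.04 for *Smad2*, -0.02 for *Smad4*, and -1.10 for *Smad9*, which DESeq2 called lower.

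*Smad7*, an inhibitory Smad that is itself induced by TGF-β and BMP signals, was at 16.4, 16.5, 18.3, and 15.1 CPM in the VPM. It was at 27.2, 23.6, 42.0, 22.7, and 33.5 CPM in the dLG, 17.9, 18.5, 25.1, and 20.6 CPM in the MGv, and 16.7, 17.2, 19.9, and 20.1 CPM in the cortex. Here, the dLG stood above all VPM and cortical libraries, and the log2FC of the VPM was -0.61 (SE 0.18, adjusted p = 0.0480). The other inhibitory Smad, *Smad6*, ranged from 1.16 to 31.6 CPM within the MGv alone and was not called by edgeR (log2FC of -1.39, SE 0.61, adjusted p = 0.158), whereas DESeq2 called it lower.

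Of the *Id* targets, *Id1* and *Id4* were lower in the VPM. *Id4*, on chromosome 13 from 48261228 to 48266026, is known to be expressed in astrocytes and neural stem cells. It was at 73.3, 115, 75.2, and 73.7 CPM in the VPM. All dLG libraries (292, 252, 221, 282, and 218 CPM) and all cortical libraries (289, 289.7, 344, and 309.8 CPM) were higher, whereas the MGv (106, 139, 365, and 213 CPM) overlapped with the VPM through MGv a. The level in the VPM was 2.77-fold lower, a log2FC of -1.47 (SE 0.27, adjusted p = 0.00702). Within the largest series, the log2FC was -1.71 (adjusted p = 0.0544).

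*Id1*, on chromosome 2 from 152736251 to 152737410, was at 39.3, 77.1, 55.6, and 40.6 CPM in the VPM. It was at 114, 112, 114, 84.2, and 116 CPM in the dLG, 44.5, 214, 180.3, and 87.9 CPM in the MGv, and 135, 113, 115, and 60.6 CPM in the cortex, so that the VPM lay below the dLG throughout, and below the MGv except that VPM b and VPM c were above MGv a. Its log2FC was -1.20 (SE 0.33, adjusted p = 0.0363). The more abundant *Id3* missed the threshold in edgeR with a log2FC of -0.66 (SE 0.25, adjusted p = 0.104), whereas DESeq2 called it lower. *Id2* had a positive value, 0.29 (SE 0.15, adjusted p = 0.234). The 4 *Id* genes therefore did not share 1 direction, and *Id2* was also the only one of the 4 whose mean level was highest in the VPM (1446 ± 299 CPM, SD, n = 4).

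The upstream sequences of *Id4* and *Bmp4* are shown as those of the most strongly lower target and the higher ligand of the VPM. Both cover the 250 bases before the RefSeq start site in GRCm38, outside annotated exons. That of *Id4* lies at chr13:48260866-48261115 on the + strand, and that of *Bmp4* lies at chr14:46390670-46390919 on the − strand. Capitals mark the same core motif of Smad3 and Smad4 and the GC-rich element bound by BMP Smads, which reads alike on both strands. The window of *Id4* holds 1 copy of the GC-rich element and that of *Bmp4* 1 core motif. The GC-rich element was found in 10 of the 36 windows available for 30 members (27.8%) and in 9.59% of the 32851 windows of all genes. The median GC content over all windows is 52.4%, and it is 75.6% in the window of *Id4*. Windows of members ranged from 42.8% to 85.6%, and most lay above that median. The part of GC content in the share of windows with the GC-rich element was not tested. These matches describe the letters of the windows, not binding.
Id4: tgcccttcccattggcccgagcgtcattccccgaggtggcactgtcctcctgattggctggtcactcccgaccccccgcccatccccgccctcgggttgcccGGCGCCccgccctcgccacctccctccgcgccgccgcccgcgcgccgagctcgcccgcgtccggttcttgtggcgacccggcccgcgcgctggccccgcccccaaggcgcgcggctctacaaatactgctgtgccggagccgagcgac
Bmp4: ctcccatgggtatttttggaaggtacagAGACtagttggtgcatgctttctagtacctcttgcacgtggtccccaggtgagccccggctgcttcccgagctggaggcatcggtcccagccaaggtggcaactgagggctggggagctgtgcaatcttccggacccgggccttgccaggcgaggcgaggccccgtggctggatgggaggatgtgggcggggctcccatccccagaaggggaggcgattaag

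**Figure D4:**
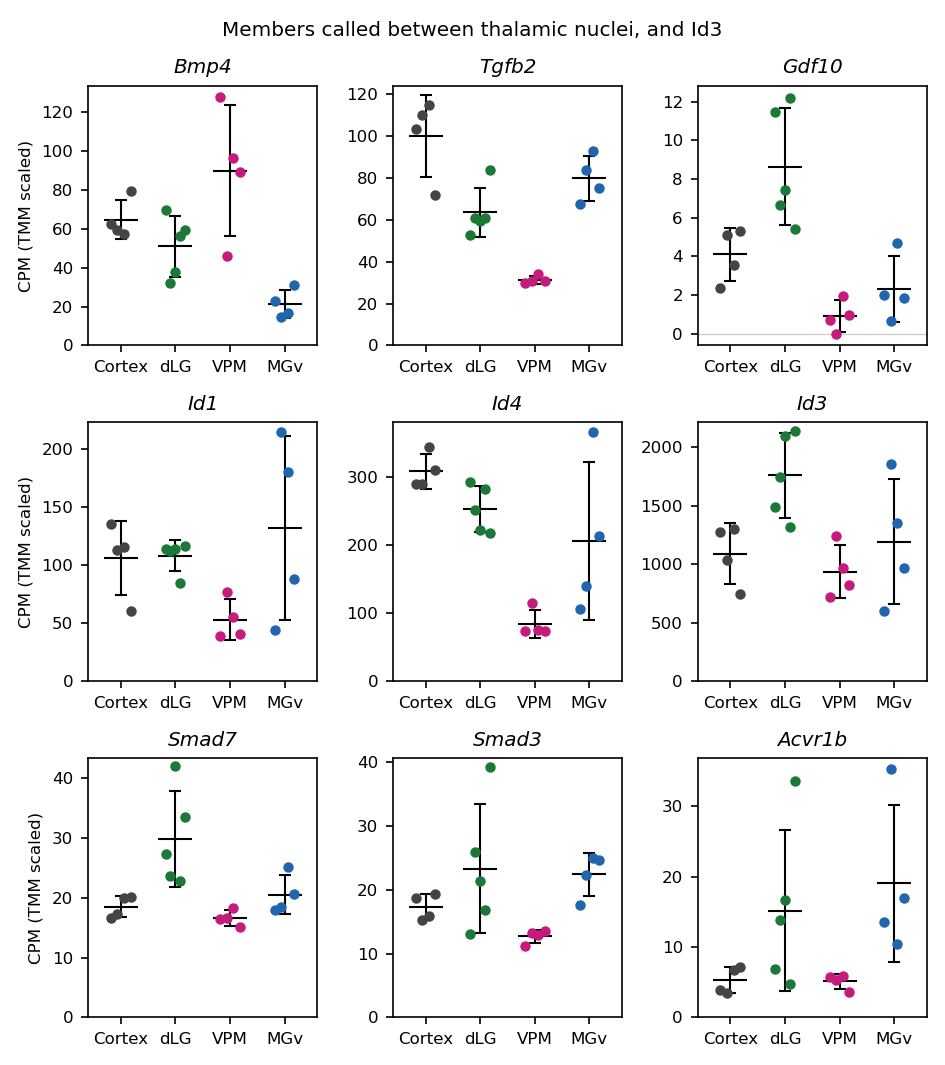
Levels in CPM (TMM scaled, linear axes from 0) of 8 members called between the nuclei and of *Id3*, one point per library in each group, with bars for the group mean and SD. The 4 VPM libraries of *Tgfb2* lie together at 29.9 to 33.9 CPM below all others, and *Bmp4* is lowest in the MGv (14.6 to 31.1 CPM).

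How many members were called in the VPM depended on single libraries. Leaving out VPM a left 3 calls (*Bmp4*, *Tgfb2*, and *Id4*), where 2.12% of all genes were still called higher and 3.46% lower. Without VPM c, 5 were called (these 3 genes, *Gdf10*, and *Acvr1b*), where 2.62% of all genes were higher and 3.64% lower. Without VPM d, 4 were called (the same 3 genes and *Smad3*), where 3.32% were higher and 3.90% lower. *Inhba*, *Fst*, and *Acvr2b* also lost their calls without VPM b (adjusted p = 0.126, 0.320, and 0.137, respectively). Leaving out a library of another nucleus ended further calls, namely, those of *Acvr2b*, *Fst*, and *Smad5* without dLG b or MGv b, of *Acvr2b* and *Fst* without MGv d, and of *Bmpr1a* without MGv d. The adjusted p in these cases lay between 0.10 and 0.129. Within the largest series, 5 members were called (*Bmp4* higher and *Tgfb2*, *Gdf11*, *Id4*, and *Smad5* lower), beside 1.94% of all genes higher and 4.60% lower, and the second series holds no MGv library.

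Markers of other cells also moved in the VPM. All 6 microglial markers were called lower there, with log2FCs from -2.84 for *Cx3cr1* to -1.95 for *P2ry12*. Their summed level was 6.69 to 11.2 CPM in the VPM, 10.9 to 91.9 CPM in the dLG, and 11.8 to 54.5 CPM in the MGv. Of the 8 oligodendrocyte lineage markers, 3 were called higher and 2 lower. *Mog* and *Mbp* were higher (log2FCs of 2.67 and 0.97), and the progenitor genes *Pdgfra* and *Cspg4* were lower (-0.35 and -1.09). Among the 10 astrocyte markers, *Gfap* (-6.37) and *Sox9* (-0.92) were lower, and *Gja1* (0.63) and *S100b* (0.60) were higher. Of the 10 neuronal markers, 1 was higher and 1 lower. Of the 4 fibroblast markers tested, 2 were lower, 1 of them *Pdgfra*, which is also on the oligodendrocyte list. Of the 4 mural markers tested, 1 was lower, namely, *Cspg4*, which the mural and oligodendrocyte lists share. Mural sums, which include *Cspg4*, were 165 to 213 CPM in the VPM, 175 to 589.6 CPM in the dLG, and 249.6 to 649 CPM in the MGv. The part of these differences in the values of the pathway genes was not tested.

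In the dLG, 4 members were called higher than in the other nuclei and none lower, beside 0.941% of all genes higher and 0.214% lower. By edgeR, 1 member was lower at an unadjusted p under 0.05, and DESeq2 called 1 lower, in both cases *Bmp7*. The median log2FC was 0.09 for the members and -0.01 for all genes. *Gdf10* was highest in the dLG, with each dLG library above each of the other nuclei, and had a 5.95-fold higher level (log2FC of 2.57, SE 0.57, adjusted p = 0.0561). *Smad7* had a log2FC of 0.71 (SE 0.16, adjusted p = 0.0730) and *Id4* one of 0.95 (SE 0.23, adjusted p = 0.0912). When pairs of nuclei were tested, the dLG differed from the VPM in both genes (log2FCs of 0.88 and 1.61, adjusted p = 0.0284 and 0.00982). In that pair, 6.48% of all genes were called higher in the dLG and 3.16% lower. No member was called between the dLG and the MGv, beside 0.370% of all genes higher and 0.277% lower, and 7 members had an unadjusted p under 0.05 there by edgeR.

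*Tgfbr2*, on chromosome 9 from 116084293 to 116175360, encodes the type II receptor that binds TGF-β. It was at 8.01, 5.31, 24.9, 6.87, and 7.57 CPM in the dLG, 4.54, 1.95, 5.66, and 6.02 CPM in the VPM, 2.02, 1.92, 3.71, and 2.58 CPM in the MGv, and 4.47, 5.17, 8.47, and 6.91 CPM in the cortex. One library, dLG c, the only one of its series, was well above all others. The log2FC was 1.64 (SE 0.38, adjusted p = 0.0699), and it was 1.04 (adjusted p = 0.194) without dLG c. Microglia and endothelial cells are also known to express *Tgfbr2*. Their summed markers were at 28.8 and 7.56 CPM in dLG c and were highest in dLG a (91.9 and 47.5 CPM, respectively), where *Tgfbr2* was at 8.01 CPM. The part of these cells in the level of *Tgfbr2* was not tested.

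None of the 4 calls of the dLG held in every fit. Leaving out any 1 of the 13 libraries gave 0 to 6 called members, and no member was called without MGv a, MGv d, VPM a, or VPM d, although between 8 and 11 had an unadjusted p under 0.05 there by edgeR. In these fits, 0.537% to 0.687% of all genes were called higher and 0.134% to 0.140% lower. *Id4* was called only in the fits without dLG d, MGv c, or VPM b (adjusted p of up to 0.204 otherwise) and *Smad7* only in those without dLG b, dLG d, or MGv c (up to 0.180). *Gdf10* was not called without dLG a, dLG b, MGv a, MGv d, VPM a, or VPM d (0.111 to 0.133), and *Tgfbr2* not without any 1 VPM library, MGv a, MGv b, MGv d, or dLG c (0.105 to 0.194). Within the largest series, the log2FC of *Gdf10* was 2.31 (adjusted p = 0.287).

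In the MGv, 1 member was called higher and 1 lower than in the other nuclei, beside 1.57% of all genes higher and 0.756% lower, and the median log2FC was 0.18 for the members and 0.02 for all genes. Both encode ligands, and both had differed in the opposite direction in the VPM. *Bmp4* was 3.14-fold lower in the MGv (log2FC of -1.65, SE 0.29, adjusted p = 0.00803), where no library reached the lowest of the other nuclei (32.2 CPM). *Tgfb2* was higher in the MGv, with a log2FC of 0.86 (SE 0.13, adjusted p = 0.00289), although its lowest MGv library (67.4 CPM) was below dLG e (83.6 CPM). Against the dLG alone, neither was called (dLG over MGv, log2FC of 1.26, SE 0.30, adjusted p = 0.111 for *Bmp4* and -0.33 (SE 0.15, adjusted p = 0.846) for *Tgfb2*). Since each nucleus is compared with the mean of the others, these values share libraries with those of the VPM. Both genes were called in each of the 13 fits that left out 1 library and within the largest series (log2FCs of -1.67 and 0.91). Among the 4 MGv libraries, *Id1*, *Id3*, and *Smad6* were each lowest in MGv a, which also had the lowest summed astrocyte markers (6391 CPM) and the highest summed neuronal and microglial markers of the MGv (1642 and 54.5 CPM). The part of these cells was not tested.

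Compared with the cortex in a fit of 4 groups, each nucleus gave its own value for the same cortical libraries. For *Ltbp1*, the log2FC was -4.74 with the dLG, -3.95 with the VPM, and -5.04 with the MGv. *Tgfb2* was at -0.65, -1.67, and -0.33, and *Id4* was at -0.28, -1.87, and -0.58, respectively. *Gdf11* had values of 1.73, 0.59, and 1.30. For each of these genes, the log2FCs of all nuclei thus had the same sign but differed in size. Libraries overlapped with the cortex in the dLG and MGv for *Tgfb2* and *Id4*, and in the VPM for *Gdf11*. Of 41 members tested, 5 were called higher and 6 lower in the dLG than in the cortex, beside 10.3% and 9.04% of all genes. For the VPM, 1 was higher and 6 lower (3.56% and 5.44% of all genes). For the MGv, 3 were higher and 4 lower (7.87% and 7.51%).

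The remaining 24 members include *Bmp5*, which the filter on low counts removed from all 4 main comparisons, and *Grem1*, tested only between regions. None of these 24 was called by edgeR. DESeq2 called 7 of them, namely, *Bmp6* and *Bmp7* between regions, *Bmp7* and *Id3* in the dLG, and *Id3*, *Nog*, *Smad6*, *Smad9*, and *Tgfb1* in the VPM. They are given as mean ± SD of 4 libraries, or 5 for the dLG. They include *Bmp2* (15.6 ± 4.03 CPM in the cortex, 12.3 ± 5.75 CPM in the dLG, 9.27 ± 1.83 CPM in the VPM, and 9.75 ± 2.02 CPM in the MGv) and *Bmp7* (142 ± 3.54, 87.8 ± 13.1, 126 ± 19.4, and 116 ± 7.63 CPM, respectively), whose products share at least some receptors with BMP4. *Bmp7* was lower in the dLG than in the VPM when these nuclei were compared alone (log2FC of -0.49, SE 0.13, adjusted p = 0.0492). *Bmp1*, a protease that cleaves Chordin, was among the most even members, with group means between 127 and 146 CPM. *Acvr1*, *Acvr2a*, *Tgfbr1*, *Smad1*, *Smad2*, and *Smad4* had log2FCs within 0.30 of 0 in all 4 comparisons.

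The antagonists other than *Fst* were not called by edgeR either, although *Grem1* was tested only between regions. DESeq2 called *Nog* lower in the VPM. *Nog* was at 51.1 ± 7.78 CPM in the cortex, 61.9 ± 12.2 CPM in the dLG, 47.3 ± 7.68 CPM in the VPM, and 75.5 ± 30.6 CPM in the MGv. *Chrd*, which encodes Chordin, was at 14.0 ± 2.40, 11.9 ± 1.95, 10.9 ± 2.64, and 15.5 ± 5.15 CPM in the same order, and the decoy receptor *Bambi* was at 16.5 ± 3.73, 20.0 ± 3.44, 22.5 ± 0.436, and 18 ± 1.40 CPM. *Nbl1* ranged from 17.5 to 30.9 CPM over the thalamus. *Grem1* averaged 0.929 ± 0.128 CPM over the cortical libraries and ranged from 0 to 0.946 CPM over the thalamic ones, of which 3 libraries had no more than 3 counts. Among the TGF-β ligands, *Tgfb1* ranged from 0.430 to 3.56 CPM over all libraries. *Tgfb3* ranged from 4.54 to 28.2 CPM, and 12.4% of its exon bases overlap *Gm37804* and *Gm48008* on the opposite strand. *Smad9* and *Tgfbr3* were at or below 5.78 CPM in every library.

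Other genes of the pathway, again from the wider list, shifted in the nuclei as well. Of 63 tested, 3 were called higher and 17 lower in the VPM, where their median log2FC was -0.36, beside 7.07% higher and 9.78% lower among all genes. *Htra1* was higher (mean ± SD, n = 4 and 9, of 887 ± 161 against 331 ± 98.3 CPM, log2FC of 1.39, SE 0.15, adjusted p = 1.57e-04), and *Ski*, which encodes a corepressor that binds Smads, was lower (mean ± SD of 53.9 ± 3.91 against 101 ± 22.0 CPM, log2FC of -0.92, SE 0.18, adjusted p = 0.00802). In the dLG, where 0.941% of all genes were higher and 0.214% lower, 1 was called, again *Htra1*, which was lower there with a log2FC of -1.18 (SE 0.15, adjusted p = 8.86e-04). In the MGv, 4 were called, all higher (1.57% of all genes higher and 0.756% lower), while at an unadjusted p under 0.05 by edgeR 13 were higher and 3 lower. The 2 with the lowest p were *Msx2*, a homeobox target of BMP signaling (log2FC of 4.42, SE 1.01, adjusted p = 0.0437, with libraries from 0.867 to 18.4 CPM), and *Inhbb*, an activin subunit gene (log2FC of 0.60, SE 0.14, adjusted p = 0.0445).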

How the data were processed

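RNA-seq was performed on astrocytes sorted from the cortex and 3 thalamic nuclei of *Gfap::GFP* mice (17 libraries, each from 4 pooled brains). As the authors describe, cDNA was made with a SMARTer Ultra Low RNA kit, and reads were trimmed, aligned to GRCm38 with STAR, and assigned to Ensembl genes with featureCounts. A kit of this type does not mark strand. The submitters' processing notes name FastQC 0.11.7, STAR 2.7.0d, SAMtools 1.9, and Subread 1.6.4. The authors deposited raw counts per gene, without normalization, and the strand setting of the counting is not given in the sources used here, so reads of overlapping genes on opposite strands cannot be told apart. Symbols and positions were taken from a GRCm38 annotation, which matched 26548 of 26556 identifiers. Promoter windows are from RefSeq (GRCm38.p6), where 30 of the 42 genes matched an entry.

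From the counts, TMM-scaled CPM, fold changes, and p-values were computed with edgeR 4.0.16 (filterByExpr, robust quasi-likelihood test, Benjamini-Hochberg adjustment over the 17856 genes tested between regions and 17319 between nuclei) in R 4.3.3, and checked with DESeq2 1.42.0. Tables and plots were made with Python 3.11.15, pandas 2.3.3, numpy 2.4.6, and matplotlib 3.10.9. The scripts were tested on simulated data. Each nucleus was contrasted with the mean of the other 2. Values per library are given for members called in at least 1 of these 4 comparisons, and other members are given by means, ranges, and counts. Of the wider pathway list, the 5 called genes with the lowest p between regions and the 2 for each nucleus are named. Genes that narrowly missed the threshold were singled out after their values were seen. The members and lists were chosen with earlier results of these data known. Alternatives were DESeq2, its size factors, other filters on low counts, a replicate block, the library series as a covariate or fitted alone, a fit of 4 groups, a threshold of 0.05, and leaving out each library.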

Additional observations from a re-analysis of the deposited data

Results flagged for a closer look

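In 6 of the 72 groups of libraries of called members 1 library lay far from the others relative to the range of the group. The nominal rate of about 1 in 20 groups assumes independent groups. These groups share the same libraries and belong to members chosen by their calls, so no excess is read from the count. *Fst* was at 12.1 CPM in VPM b, with the next VPM library at 5.86 CPM. *Id4* was also highest in VPM b among the VPM libraries, at 114.9 CPM, with the next at 75.2 CPM. *Id1* was at 84.2 CPM in dLG d, with the other dLG libraries at or above 112 CPM. *Tgfb2* was at 83.6 CPM in dLG e, with the next dLG library at 60.9 CPM, and *Tgfbr2* was at 24.9 CPM in dLG c, with the next at 8.01 CPM. *Ltbp1* was at 81.3 CPM in cortex d, with the next cortical library at 61.6 CPM.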

How the results depend on the processing

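Of the 574 values of the 26 calls of single members under the alternatives, 440 stayed called in the same direction, 134 were no longer called, and 0 changed direction. *Ltbp1* between regions, *Tgfb2*, *Id4*, and *Bmp4* in the VPM, and *Tgfb2* and *Bmp4* in the MGv were called in each of these alternatives, which do not include tests against a single nucleus. The counts of called members depended more on the choices. Between regions, 5 were called, against 9 with DESeq2, 9 in the fit of 4 groups, 2 within the largest library series, 1 within the second, and 3 to 8 when 1 library was left out (3 without cortex b or cortex d, 8 without dLG c). The shares of all genes moved too, with 9.06% higher and 6.60% lower under DESeq2. They were 1.86% and 3.14% within the largest series and 0.718% and 1.37% within the second. In the dLG, 4 were called, against 7 with DESeq2, 1 with the series as a covariate, and 0 to 6 when 1 library was left out. The shares of all genes in the dLG moved too, with 2.298% higher and 0.733% lower under DESeq2. They were 0.479% and 0.121% with the series as a covariate, and 2.23% and 0.588% without dLG d (6 members called). Within the largest series, they were 0.143% and 0.0440%. For the dLG, 0 members were called by edgeR within the largest series (6 at an unadjusted p under 0.05), in the dLG against the VPM within the second (4 at an unadjusted p under 0.05), at an adjusted p under 0.05, and against each of the other nuclei. In the VPM, 15 were called, against 20 with DESeq2, 5 within the largest series, 0 within the second (against the dLG only), 5 against each of the other nuclei, and 3 to 19 when 1 library was left out. All genes moved as well, with 8.86% higher and 13.7% lower under DESeq2 and 1.94% and 4.60% within the largest series. Their shares were 2.12% and 3.46% without VPM a (3 members called) and 6.51% and 9.25% without MGv a (19 called). In the MGv, 2 were called, against 4 with DESeq2, 0 against each of the other nuclei, and 2 to 6 when 1 library was left out (6 without MGv a, with *Id1*, *Nog*, *Tgfb3*, and *Bmpr1a* also higher). Of all genes, 3.16% were higher and 1.96% lower there with DESeq2, and 1.88% and 0.687% without MGv a. The cause of these shifts was not tested, other than that fits with fewer libraries have less power by construction.

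The letters of the libraries pair them across groups only by name. Deviations of the 24 pairs with the same letter from their group means correlated at -0.16 to 0.22 (median 0.01, against -0.01 for other letters), and 4 of 17 libraries correlated best with their own letter. With a replicate block, the counts were 4 between regions, 2 for the dLG, 14 for the VPM, and 4 for the MGv. Of all genes, 4.59% were then higher and 5.38% lower between regions, and 0.560% and 0.110% in the dLG. The shares were 7.86% and 9.13% in the VPM and 2.42% and 1.46% in the MGv. All 168 mean levels moved by less than 1 SD with the size factors of DESeq2. At 18213687 to 50366363 counts per library, *Bmp5*, *Grem1*, *Tgfbr3*, and *Gdf10* rest on few counts in some libraries.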
